A study of Mus musculus with 2 samples.

Results

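H4K12la, histone H4 lactylated at lysine 12, was mapped by CUT&Tag around 8 genes of noradrenergic identity in Neuro2a cells, a mouse neuroblastoma line. The 8 genes are Phox2a, Hand2, Gata2, Gata3, Isl1, Th, Dbh and Mycn. They are 8 of the 21887 protein-coding genes on the chromosomes used. Each was taken as its RefSeq span with 50 kb on either side, and every peak touching that window in either deposited list was counted. The lactate library came from Neuro2a cells given 25 mM lactate, and the NaCl library from Neuro2a cells given NaCl at a dose the labels do not state. Cells of both groups grew on collagen I in DMEM with 10% fetal bovine serum. There was 1 library per group, so no test between groups was possible, every difference below is between these libraries, and nothing below has a replicate check. The time of exposure is not given in the labels. In CUT&Tag an antibody brings a transposase to a chromatin mark, and the DNA beside the mark is tagged and sequenced. The study asks whether H4K12la regulates gene transcription.

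Noradrenergic neuroblastoma cells resemble sympathetic neuroblasts and are held in that state by transcription factors that bind and activate one another's genes. The homeodomain factor Phox2a, the basic helix-loop-helix factor Hand2, the zinc finger factors Gata2 and Gata3 and the LIM homeodomain factor Isl1 belong to this circuit. Th and Dbh encode the enzymes that make dopa and noradrenaline. Mycn encodes the MYC-family factor that is amplified in many aggressive human neuroblastomas. Histone lactylation is a lysine modification that uses lactate as its source and has been studied mostly at active promoters and enhancers. The files measure a mark and not RNA, so whether these cells expressed the 8 genes was not measured.

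The libraries had similar depth. The lactate library held 39768 peaks and the NaCl library 46592. The genome-wide background solved from the peaks was 3.06 overlapping reads in the lactate library and 2.96 in the NaCl library, which puts the lactate library 3.43% deeper. The lowest summit called in each library had 11 overlapping reads. A call also depended on the reads around the summit, so more than 11 were needed where these were dense. Signal below the limit of its place could be present where no peak was called. Intervals below are exact 95% Poisson intervals for reads and exact Clopper-Pearson intervals for shares. They cover counting error only, and reads from amplified libraries are not independent molecules.

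To show what the called and uncalled starts look like, 5 promoters are printed here. Each is the 250 bases before a RefSeq start (GRCm38.p6, the assembly that mm10 names), read 5′ to 3′ on the strand of the gene, with every CpG in capitals. The Phox2a promoter is shown because it lay wholly in a peak of the lactate library. The second Gata2 start is shown because the lactate peak there covered 100 of these bases and the NaCl list had no peak. The Isl1 promoter is shown because it lay wholly in a peak of each library. The Th and Dbh promoters are shown as the enzyme genes, which had no peak within 1 kb of the start in either library.
Phox2a, chr7:101818063-101818312, plus strand: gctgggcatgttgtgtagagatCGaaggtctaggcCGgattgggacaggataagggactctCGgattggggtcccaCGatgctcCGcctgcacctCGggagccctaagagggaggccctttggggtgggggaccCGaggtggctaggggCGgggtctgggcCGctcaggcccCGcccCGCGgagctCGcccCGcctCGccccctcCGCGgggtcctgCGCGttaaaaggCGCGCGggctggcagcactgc
Gata2 second start, chr6:88198414-88198663, plus strand: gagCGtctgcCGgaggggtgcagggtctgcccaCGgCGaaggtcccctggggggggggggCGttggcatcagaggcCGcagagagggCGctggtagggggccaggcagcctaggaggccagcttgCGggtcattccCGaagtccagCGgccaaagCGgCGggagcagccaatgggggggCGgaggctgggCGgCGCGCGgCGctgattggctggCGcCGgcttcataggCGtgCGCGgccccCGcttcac
Isl1, chr13:116309689-116309938, minus strand: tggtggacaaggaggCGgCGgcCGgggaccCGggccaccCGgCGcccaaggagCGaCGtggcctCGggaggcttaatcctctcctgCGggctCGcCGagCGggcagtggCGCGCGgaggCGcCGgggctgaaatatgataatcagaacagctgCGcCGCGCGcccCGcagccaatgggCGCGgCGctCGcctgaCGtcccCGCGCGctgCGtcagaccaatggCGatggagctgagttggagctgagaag
Th, chr7:142899996-142900245, minus strand: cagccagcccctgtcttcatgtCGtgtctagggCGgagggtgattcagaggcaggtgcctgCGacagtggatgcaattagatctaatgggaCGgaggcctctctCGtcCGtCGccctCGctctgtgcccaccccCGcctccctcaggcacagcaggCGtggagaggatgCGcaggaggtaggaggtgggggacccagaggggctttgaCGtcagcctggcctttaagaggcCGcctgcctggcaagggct
Dbh, chr2:27165257-27165506, plus strand: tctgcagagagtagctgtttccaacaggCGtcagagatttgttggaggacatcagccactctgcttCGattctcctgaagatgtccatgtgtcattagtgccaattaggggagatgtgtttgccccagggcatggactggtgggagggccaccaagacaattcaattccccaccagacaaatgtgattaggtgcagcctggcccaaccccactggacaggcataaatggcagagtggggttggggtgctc

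CpG content ran from 33 in the Isl1 promoter, 24 before the second Gata2 start and 22 in the Phox2a promoter to 13 in the Th and 2 in the Dbh promoter. The starts not printed lay between these values, with 22 CpG before the first Gata2 start, 19 for Gata3, 15 for Hand2 and 11 for Mycn. Of the 4 members' starts with 20 or more CpG, 3 had a lactate peak within 1 kb and 1 had a NaCl peak. Over the 5048 such starts of all protein-coding genes, 75.8% had a lactate peak and 51.9% a NaCl peak. Among the 7170 starts with under 5 CpG, the class of Dbh, the shares were 9.60% and 9.18%. Among the 9045 starts with 5 to 19 CpG, 56.3% had a lactate peak and 38.1% a NaCl peak. In that class 0 of the 4 members' starts (Hand2, Gata3, Th and Mycn) had a lactate peak and 1 (Hand2) had a NaCl peak. Calls were thus more frequent at CpG-rich starts over all genes, while 9 starts of the members are too few to be read against these shares. The first Gata2 start was without a call in either library and had the same CpG count as Phox2a.

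**Figure D1:**
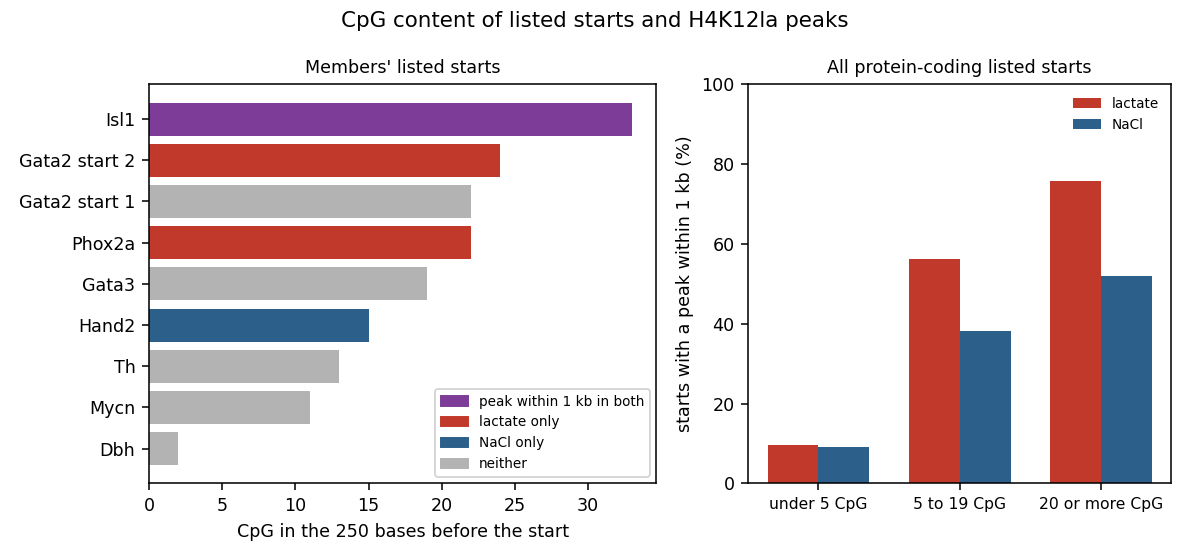
Left, CpG count in the 250 bases before each listed start of the members (bars), coloured by whether a peak lay within 1 kb in both libraries, in one of them or in neither. Right, the share of all protein-coding listed starts with a peak within 1 kb, by CpG class, with lactate left of NaCl. Isl1 with 33 CpG had a peak in both libraries and Dbh with 2 CpG had none, while the share of all starts called in the lactate library was 9.60% under 5 CpG and 75.8% at 20 or more.

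Literal motif letters were searched on both strands of the 300-base windows that run to 50 bases after each start. TGACGTCA, the cyclic AMP response element, was found in the Th promoter, beginning 45 bases before the start, and in none of the other members. It occurs in 2.23% of the 21263 promoters. TAATTA, a homeodomain core, was found for Hand2 and no other member, and 4.53% of all promoters hold it. The sequence AGATAA, which fits the core that zinc finger factors of this family bind, was found for Hand2 and Isl1, and 9.65% of all promoters hold it. The variant TGATAA was found for the same pair of genes, and 7.60% of all promoters hold it. The E-box, CANNTG, was found at every listed start except the first one of Gata2, and 69.0% of all promoters hold it. At Hand2 the TAATTA and AGATAA letters overlap. A match is a string of letters and not a measured binding site.

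All 8 windows held at least 1 peak in each library. Over all protein-coding genes with the same flanks, 82.2% had a lactate peak and 80.8% a NaCl peak in the window, so this is close to the background. The windows held 24 lactate peaks and 18 NaCl peaks. Per 100 kb of window the members had a median of 1.83 lactate peaks and 1.90 NaCl peaks, against 2.61 and 1.84 over all genes. The lactate library had more peaks than the NaCl library in 4 windows (Phox2a, Hand2, Gata2 and Isl1), as in 52.6% of all genes. It had fewer in 2 (Gata3 and Dbh), as in 23.4% of all genes, and equal numbers in 2 (Th and Mycn), as in 24.0%. The share of members with more lactate peaks, 4 of 8, was thus near the background.

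**Figure D2:**
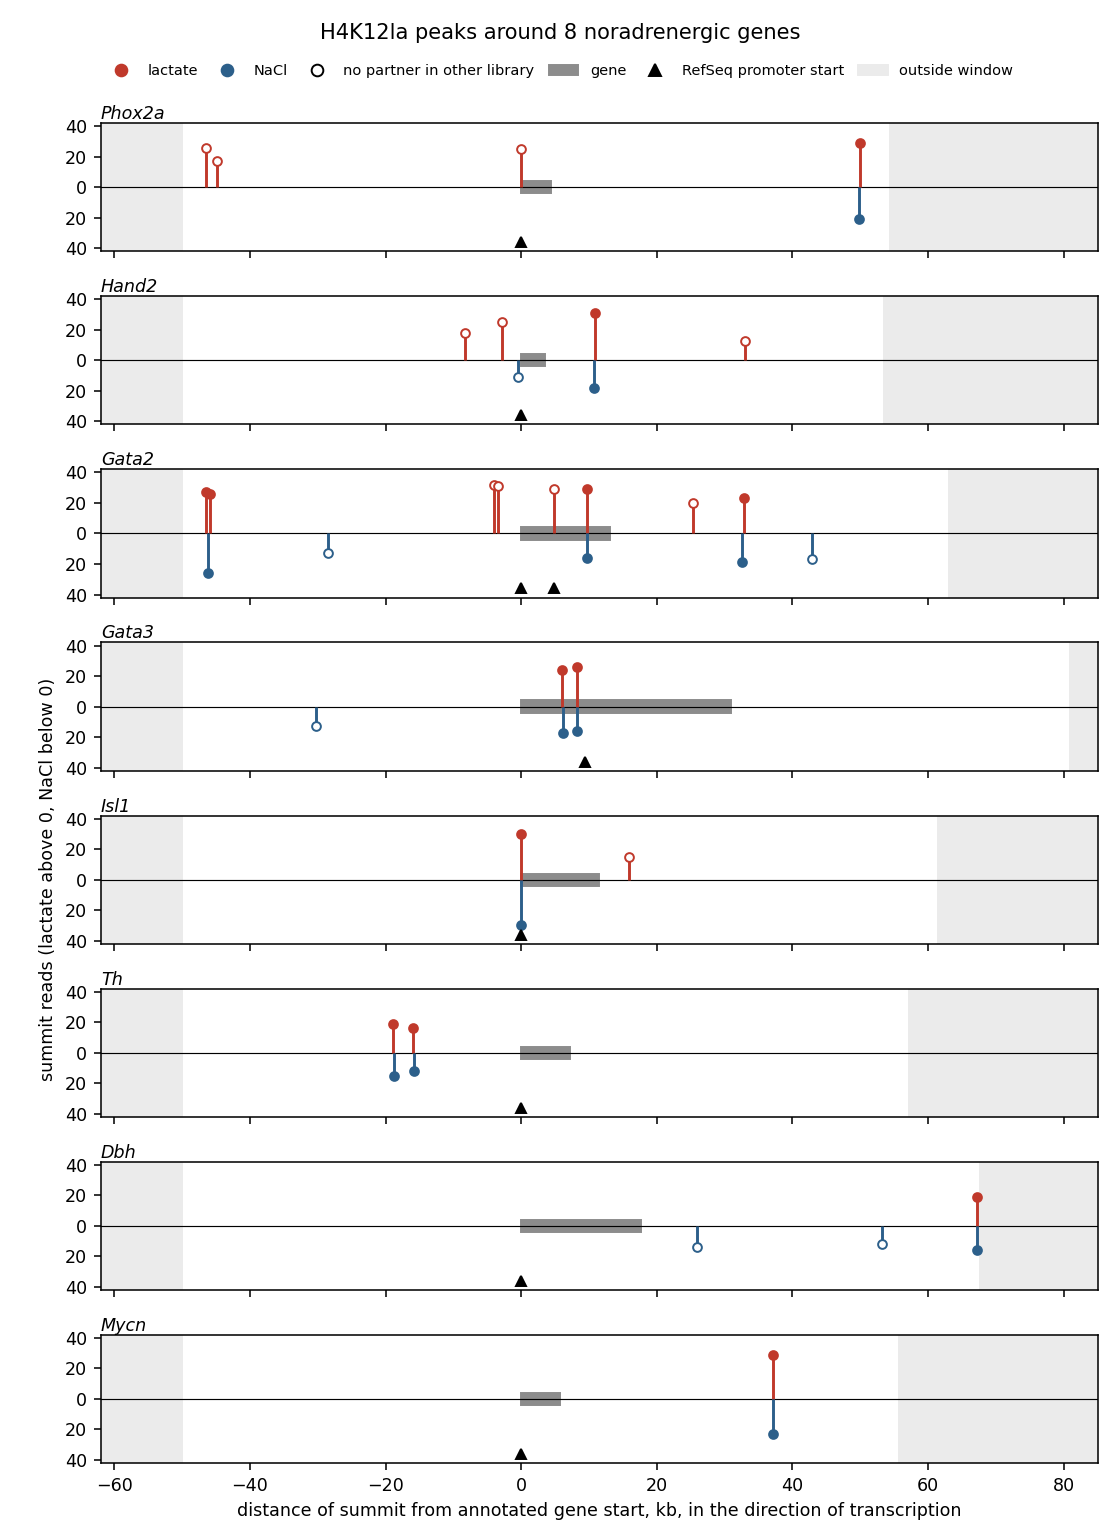
Summit reads of every H4K12la peak (lines with points; lactate above 0, NaCl below 0) against distance from the annotated gene start in kb, in the direction of transcription, for the 8 windows. Filled points overlap a peak of the other library and open points do not, black triangles mark RefSeq promoter starts, and light grey lies outside the window. Gata2 holds 8 lactate and 5 NaCl peaks, while Mycn holds 1 of each, 37.1 and 37.2 kb from its start.

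Of the lactate peaks 13 of 24 overlapped a NaCl peak by at least 1 bp, or 54.2% (32.8% to 74.4%), against 43.4% of all lactate peaks. Of the NaCl peaks 12 of 18 overlapped a lactate peak, or 66.7% (41.0% to 86.7%), against 37.7% of all NaCl peaks. These intervals treat peaks as independent, although several lie in the same window. Neither share is therefore read as a difference from all peaks. The 11 lactate peaks without a partner had 13 to 32 summit reads with a median of 25.0. The 6 NaCl peaks without a partner had 11 to 17 reads with a median of 13.0, close to the lowest summit called. By median the NaCl peaks without a partner were thus weaker than the shared NaCl peaks (median 17.5 reads), though the ranges overlapped. By median the lactate peaks without a partner were about as high as the shared lactate peaks, whose median was 26.0 reads. This likeness leaned on Gata2, where those without a partner had 32, 31, 29 and 20 reads. At the other members they had 26, 25, 25, 18, 17, 15 and 13 reads. The shared lactate peaks outside Gata2 had 16 to 31 reads, so the ranges overlapped there too. Within 1 kb of an annotated gene start lay 2 lactate and 2 NaCl peaks, and none lay at a 3′ end. Bodies held 4 lactate and 3 NaCl peaks, and the remaining 18 lactate and 13 NaCl peaks lay in the flanks. Peak width had a median of 227 bp in the lactate library, from 112 to 757 bp, and 214 bp in the NaCl library, from 106 to 942 bp.

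At annotated gene ends, within 1 kb, 1 member was called in the lactate library alone (Phox2a), 1 in the NaCl library alone (Hand2), 1 in both (Isl1) and 5 in neither. The shares over all protein-coding genes were 16.2% lactate alone, 3.34% NaCl alone, 28.6% both and 51.9% neither. RefSeq lists a second start for Gata2, 4773 bp inside the gene, and with windows at listed starts Gata2 was also called in the lactate library alone. On that rule the background over the 17492 genes with a listed start was 16.4% lactate alone, 2.69% NaCl alone, 30.4% both and 50.6% neither. Read against these shares, counts over 8 genes are too few to be a result about the members.

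Phox2a drives the noradrenergic program and activates Dbh. The lactate peak at its start covered 424 bp (chr7:101817902-101818325), with its summit 86 bp before the start and 25 summit reads (16.2 to 36.9). Its fold over local background was 3.04 and its −log10 q was 3.87, the authors' own values, as all folds and −log10 q here. The NaCl list had no peak at this start, and its nearest summit was 49.9 kb away. That NaCl peak, inside the folate receptor gene Folr1, had 21 reads (13.0 to 32.1), and overlapped a lactate peak of 29 reads (19.4 to 41.6). Further lactate peaks without a partner lay 46.4 and 44.9 kb upstream, inside the mitochondrial chaperone gene Clpb, with 26 and 17 reads. Around Phox2a, then, the libraries met at the far downstream peak and the promoter was called with lactate.

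Hand2 specifies sympathetic and cardiac precursors. Its lactate peaks lay 8.33 and 2.91 kb upstream with 18 and 25 reads, both inside the divergent noncoding gene Hand2os1, and 10.9 and 32.9 kb downstream with 31 and 13 reads. The farther downstream peak lay inside the gene Hdnr, which also has an end within 1 kb of the nearer one. The NaCl peaks lay 420 bp before the start with 11 reads (5.49 to 19.7), which is the lowest summit the caller accepted, and 10.8 kb downstream with 18 reads (10.7 to 28.4). The upstream NaCl peak also lay within 1 kb of an end of Hand2os1, and its −log10 q was 1.34 against a lowest deposited value of 1.30. The downstream peaks of the libraries overlapped by 62 bp at an end of the noncoding gene Gm34030, with 31 lactate reads (21.1 to 44.0) against the 18 NaCl reads. Counting error alone could not separate these values, which is not evidence that they were alike.

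Gata2, a factor of early sympathetic differentiation and of blood stem cells, had the most peaks of the 8 genes. In the lactate library 2 peaks stood 4.05 and 3.41 kb upstream with 32 and 31 reads, 1 at the second start with 29 reads (19.4 to 41.6) and 1 in the body 9.64 kb from the first start with 29 reads. The last of these overlapped a NaCl peak of 16 reads (9.15 to 26.0), and the other 3 had no partner. In the flanks the libraries shared a site about 46 kb upstream, where lactate peaks of 27 and 26 reads overlapped a single NaCl peak of 26 reads, and a site 32.8 kb downstream, with 23 lactate and 19 NaCl reads. The NaCl library had peaks of its own 28.6 kb upstream with 13 reads and 42.9 kb downstream with 17 reads. The lactate library had one of its own 25.4 kb downstream with 20 reads. The peak at the second start was weak by the caller's measure, with a fold of 2.16 and a −log10 q of 1.92. It also lay within 1 kb of an end of the noncoding gene Gm38708. All the upstream peaks of both libraries lay inside Gm38708.

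Gata3, the paralog that keeps Th and Dbh active in sympathetic neurons of mice, was marked in its body in both libraries. RefSeq lists its promoter start 9353 bp inside the span, and the peaks lay upstream of that start. The nearer pair had its lactate summit 1.14 kb before the listed start with 26 reads (17.0 to 38.1) and its NaCl summit 1.11 kb before it with 16 reads (9.15 to 26.0). The farther pair, at 3.34 kb in the lactate library and 3.25 kb in the NaCl library, had 24 and 17 reads and lay in the noncoding gene 4930412O13Rik. A NaCl peak of 13 reads without a partner lay 30.2 kb upstream of the span, inside Taf3. The Gata3 start thus missed the 1 kb limit by a small distance in both libraries.

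Isl1, which acts with Phox2a and Gata factors in sympathetic neuroblasts, had wide peaks in both libraries. At its start the lactate peak covered 755 bp (chr13:116309425-116310179) and the NaCl peak 942 bp (chr13:116309189-116310130). Each had 30 summit reads (20.2 to 42.8), and the summits lay 81 bp and 103 bp before the start. The fold was 3.66 in the lactate library and 4.55 in the NaCl library, and the −log10 q was 6.42 and 8.61. Isl1 is the member whose start was called with a −log10 q of at least 5 in each library. A further lactate peak of 15 reads without a partner lay 15.8 kb downstream of the start.

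The enzyme genes had no peak at their ends or in their bodies. Th encodes tyrosine hydroxylase, the rate-limiting step of catecholamine synthesis. Both libraries had peaks 18.8 kb upstream of it, with 19 lactate reads (11.4 to 29.7) and 15 NaCl reads (8.40 to 24.7), and nearer, at 16.0 kb with 16 lactate reads and 15.9 kb with 12 NaCl reads. Dbh encodes dopamine beta-hydroxylase, which makes noradrenaline. Its peaks lay downstream, inside the sarcosine dehydrogenase gene Sardh, with 19 lactate and 16 NaCl reads at the shared site 67.3 and 67.2 kb from the Dbh start. The NaCl library had peaks of its own at 25.9 and 53.2 kb with 14 and 12 reads. At both enzyme genes, then, the shared sites lay outside the gene, and each had somewhat more lactate than NaCl reads with overlapping intervals.

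Mycn had no peak in or near the gene in either list. The nearest summits lay 37.1 kb from its start in the lactate library and 37.2 kb in the NaCl library, beyond its 3′ end and outside any annotated gene. This shared peak was the strongest of the 8 windows by the caller's measure. It covered 757 bp with 29 lactate reads (19.4 to 41.6) and 657 bp with 23 NaCl reads (14.6 to 34.5). The fold was 5.95 in the lactate library and 6.06 in the NaCl library, and the −log10 q was 11.69 and 9.58. Over all genes with a listed start, the median distance from start to nearest summit was 2.96 kb in the lactate library and 12.1 kb in the NaCl library. The members ran from 0.0420 kb at Gata2 to 60.7 kb at Dbh in the lactate library, and from 0.103 kb at Isl1 to 49.9 kb at Phox2a in the NaCl library, with medians of 2.03 and 10.4 kb.

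At the limit of the 50 kb windows, the outermost peaks were the shared pair at Dbh, which began 49.4 kb from the gene with 19 lactate and 16 NaCl reads. The nearest peaks outside a window lay 60.6 kb from Dbh with 12 lactate reads and 61.3 kb from Gata2 with 20 NaCl reads.

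**Figure D3:**
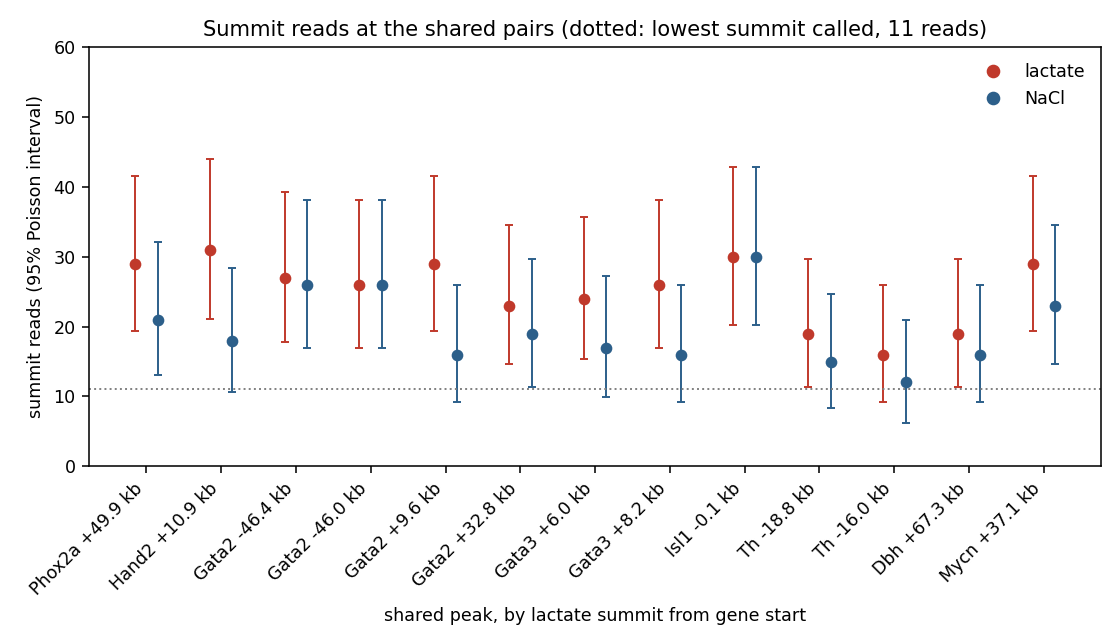
Summit reads with exact 95% Poisson intervals at the 13 overlapping pairs, lactate left of NaCl, each named by member and distance of the lactate summit from the gene start. The dotted line is the lowest summit called, 11 reads. Lactate summits are at or above NaCl summits in every pair, and the intervals of all 13 pairs overlap.

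Where both libraries had a peak, the lactate summit had more reads in 11 of 13 pairs and the same number in 2. More lactate reads were found in 70.3% of all 17922 overlapping pairs of the series, and the median ratio of lactate over NaCl reads was 1.27 for the members and 1.25 for all pairs. The Poisson intervals overlapped in all 13 pairs, and they stood apart in 1.62% of all pairs. The fold went the other way, being lower in the lactate library in 11 of 13 pairs, as in 54.7% of all pairs. The highest ratios of summit reads were 1.81 at the pair in the Gata2 body and 1.72 at the pair downstream of Hand2.

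The fold is the summit over a local background, and both parts were higher in the lactate library at most pairs, the background by the larger median ratio. MACS2 takes the local background from the reads in 10 kb around the summit, or the genome-wide level where that is higher. The value includes the reads of the peak itself, so it describes the density of reads over a broader stretch. No control library is given in the sources used here, so how much of this density is the mark was not measured. At all 13 pairs it was higher in the lactate library by more than the depth difference, as in 76.2% of all pairs. The median ratio was 1.52 for the members and 1.35 for all pairs, whose quartiles were 1.03 and 1.65. Why local density differed at these pairs was not tested.

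**Figure D4:**
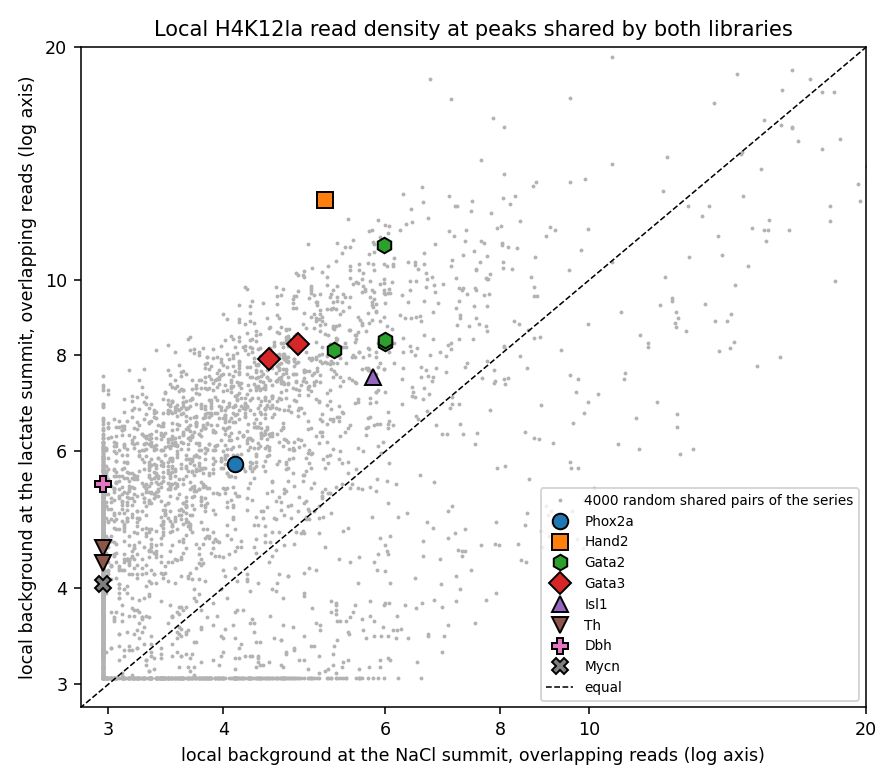
Local background in overlapping reads at the lactate summit (vertical) against that at the NaCl summit (horizontal), both on log axes, for the 13 pairs of the members (large symbols) and for 4000 pairs drawn at random from all overlapping pairs (grey), 59 of which lie beyond the axes. The dashed line marks equal values. All member pairs lie above the line, with Hand2 farthest above it at 12.7 lactate against 5.16 NaCl.

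Hand2 had the largest ratio of the members. Its downstream pair had a local background of 12.7 overlapping reads in the lactate library and 5.16 in the NaCl library, a ratio of 2.45, which 0.151% of all pairs reach. The steps of these values correspond to 633 reads in 10 kb (585 to 684) in the lactate library and 258 (227 to 291) in the NaCl library, taking each read as extended to 200 bp. The genome-wide level on this scale is 153 reads in the lactate library and 147 in the NaCl library. The lactate density there was therefore 4.14 times its genome-wide level, and the NaCl density 1.74 times.

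Gata2 had dense reads across the gene in the lactate library. From 4.05 kb upstream to 9.64 kb into the gene, its 4 lactate peaks had local backgrounds from 11.1 to 12.9 overlapping reads. In order along the gene these stand for 599, 619, 643 and 556 reads in 10 kb. The 10 kb stretches of neighbouring peaks overlap, so these values share reads and are not independent. The highest of these is reached by 1.27% of lactate peaks. The NaCl peak in the body had 5.98, or 299 reads in 10 kb (266 to 335), against 556 (511 to 604) in the lactate library at the overlapping peak. The first 3 of these lactate peaks had no NaCl partner, so no NaCl density centred on them is in the list. The 10 kb around the NaCl body peak reach into the stretch at the second start only. Because each peak is judged against this background, the lactate peaks in Gata2 had low folds, from 2.16 to 2.54, despite 29 to 32 summit reads.

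Gata3 pairs had 8.26 against 4.82 and 7.90 against 4.48 overlapping reads (lactate against NaCl), with ratios of 1.71 and 1.76. The remaining transcription factor gene with a shared start, Isl1, had the smallest ratio of the members, 1.29, with 7.48 in the lactate library and 5.82 in the NaCl library. At Phox2a the lactate start peak had 7.54, or 377 reads in 10 kb (340 to 417), with no NaCl peak to compare, and the far shared pair had 5.78 against 4.12. The enzyme genes and Mycn had peaks in their flanks only, with lower densities there. The density at these genes themselves is therefore not in the lists. Their lactate values ran from 4.04 at Mycn to 5.44 at Dbh, and their shared NaCl peaks all stood at the genome-wide level of 2.96. Lactate flank peaks of the transcription factor genes other than Mycn ran from 3.42 to 12.7, both at Hand2. Over all member peaks, 14 of 24 lactate peaks (58.3%) had at least 2 times the genome-wide level, against 23.7% of all lactate peaks. In the NaCl library it was 2 of 18 (11.1%), against 7.97% of all NaCl peaks. All 8 lactate peaks at Gata2 were among them, and without Gata2 the count was 6 of 16 (37.5%). The other dense lactate peaks lay at Phox2a, Hand2, Gata3 and Isl1, and Th, Dbh and Mycn, with flank peaks only, had none.

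By counting error alone, the lactate interval for reads in 10 kb lay wholly above the NaCl interval in all 13 pairs, before the depth difference is taken off, as it did in 53.0% of all pairs. Where the NaCl value stood at the genome-wide level, its own 10 kb count was at or below that level and the level was used in its place. This was so at the pairs of Th, Dbh and Mycn, where the NaCl count itself and its counting error are not known. The members' pairs share windows at Gata2, Gata3 and Th and are not independent of one another.

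Genes of the same pathway were read at both gene ends, from lists of related functions. Of 23 other noradrenergic regulators, 3 had a lactate call and no NaCl call, 0 the reverse, 3 both and 17 neither. The lactate-only genes were the Notch target Hey1 with 20 summit reads (12.2 to 30.9), the homeodomain cofactor Pbx3 with 18 and the SoxC factor Sox4 with 15. The Hey1 peak also lay at an end of LOC115489673. Klf7, a Krüppel-like factor of the circuit, had 22 lactate and 19 NaCl reads, and the homeodomain factor Meis1 had 28 and 14. Of the 23 regulators, 13.0% were called with lactate alone, 0% with NaCl alone, 13.0% in both libraries and 73.9% in neither. The shares of all genes were 16.2%, 3.34%, 28.6% and 51.9%.

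Of 18 genes for catecholamine synthesis, storage and clearance, 2 had a lactate call and no NaCl call, 0 the reverse, 6 both and 10 neither. Both libraries thus had a call at 33.3% of them and neither at 55.6%, against 28.6% and 51.9% of all genes. Pts and Qdpr make and recycle the tetrahydrobiopterin that tyrosine hydroxylase needs. Pts had 18 lactate reads (10.7 to 28.4) and no NaCl call, and Qdpr had 28 lactate reads (18.6 to 40.5) and 16 NaCl reads (9.15 to 26.0). The granule protein gene Chgb had 40 lactate reads (28.6 to 54.5) and 23 NaCl reads (14.6 to 34.5), and Scg2 had 12 lactate reads and no NaCl call. Ddc, which follows Th in the pathway, and the noradrenaline transporter gene Slc6a2 had no call at their ends. The vesicular transporters Slc18a1 and Slc18a2 had calls in both libraries, at different places for Slc18a2, and the Slc18a1 peaks also lay at an end of Atp6v1b2.

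Of 23 neuroblastoma growth and receptor genes, 3 had a lactate call and no NaCl call, 0 the reverse, 11 both and 9 neither. Both libraries thus had a call at 47.8% and neither at 39.1%, against 28.6% and 51.9% of all genes. The lactate-only genes were the chromatin remodeller Atrx with 17 reads, the neurotrophin receptor Ngfr with 15 and Myc with 21 (13.0 to 32.1). Lin28b, which blocks let-7 maturation, had 47 lactate reads (34.5 to 62.5) and 21 NaCl reads (13.0 to 32.1). Its intervals did not overlap, as in 1.62% of all overlapping pairs. Within 1 kb of its listed starts, Lin28b was called in the lactate library alone. Ddx1, a neighbour of Mycn that is often amplified with it in human tumours, had 32 lactate and 19 NaCl reads. Alk, a receptor tyrosine kinase gene, had no call at its ends.

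Of 24 mesenchymal neuroblastoma genes, 2 (Tead1 and Fn1) had a lactate call and no NaCl call, 0 the reverse, 6 both, including Wwtr1 and Maml2, and 16 neither, so that 25.0% had both calls and 66.7% neither. Of 11 Schwann cell and precursor genes, Erbb3 and Mbp had a lactate call alone, S100b a NaCl call alone, 1 gene both, and 7 neither, among them Sox10 and Foxd3, so that 9.09% had both calls and 63.6% neither. Of 7 cholinergic genes, Prima1 had a lactate call alone, Ache both, and 5 neither, among them Chat and Slc18a3, so that 14.3% had both calls and 71.4% neither. These also stand against 28.6% and 51.9% of all genes. A lactate call alone was found at 8.33%, 18.2% and 14.3% of these lists, in this order, against 16.2% of all genes. A NaCl call alone was found at 0%, 9.09% and 0% of them, against 3.34% of all genes. Erbb3 had 35 lactate reads (24.4 to 48.7), more than any of the 8 members' peaks, but its peak also lay at an end of Pa2g4. The peak credited to S100b likewise lay at an end of Dip2a, and the call at Ache at an end of Ufsp1. Calls at gene ends were thus also found at genes of other cell types, and no difference between the lists or from all genes was tested.

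The genes most like the members in gene-end fold over both libraries, within the same class of call, were Ezh1 and Ffar4 for Phox2a, with a lactate fold of 3.04 each. For Hand2 they were Fam83e and Sult2b1, with a NaCl fold of 2.79 each, and for Isl1 Ccdc47 and Ddx42, with folds of 3.65 in the lactate and 4.55 in the NaCl library. With 1 library per group this likeness rests on a pair of values per gene. Fam83e and Sult2b1 had the same folds, as did Ccdc47 and Ddx42. Whether a single peak was credited to both genes of such a pair was not checked.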

How the data were processed

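H4K12la CUT&Tag peaks of 1 lactate and 1 NaCl library of Neuro2a cells were used, grouped by the treatment in the labels. Reads were paired and 150 bases long, per the labels' protocols. The submitters' processing notes name BWA, deepTools, MACS2 and the build mm10. Versions, settings and any control library or spike-in: not given in the sources used here. Each library has its own MACS2 peak list, as the authors deposited it. The deposited fold is the ratio of summit pileup to local background. The deposited −log10 p and the deposited −log10 q are those of the summit, and in the deposited score that −log10 q stands multiplied by 10.

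The autosomes, X and Y were kept, and 6 lines per list were left out. Pileup and local background were solved from fold and −log10 p, with a whole-number pileup within 0.001 for all 39768 lactate and 46591 of 46592 NaCl peaks. The solution was tested on simulated data. Genes and starts came from RefSeq tables of GRCm38.p6, and all list genes were matched. The genes named were the members, neighbours with an end at a member's peak, and up to 4 one-library and 2 shared genes per list, highest fold first. For each member with a gene-end peak, the 2 genes closest in fold were also named. A few list genes without a call were named after their values were seen. A few list genes are counted but not reported here by name. The members, lists and rules were chosen with earlier results of these data known. The comparison of local background was added after the peaks were seen. Settings tried besides the main ones were higher thresholds, equal list lengths, merged intervals, and other overlaps, flanks and end windows. Python 3.11.15, numpy 2.4.6, pandas 2.3.3, scipy 1.17.1 and matplotlib 3.10.9 were used.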

Additional observations from a re-analysis of the deposited data

How the results depend on the processing

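With 1 library per group nothing could be left out, and no paired analysis was possible because each group has 1 library. Calls at the members were mostly weak. With a −log10 q of at least 5, the windows kept 4 lactate and 4 NaCl peaks, 75.0% of the lactate peaks had a partner, and 3 members had a lactate and 4 a NaCl peak. At gene ends 1 member was then called in the lactate and 1 in the NaCl library, and 16 lactate and 9 NaCl list genes. With a −log10 q of at least 10, 1 lactate peak (at Mycn) and 0 NaCl peaks were left, so 1 member had a lactate and 0 a NaCl peak, 0 of 1 had a partner (0%), and gene-end calls were 0 in the lactate and 0 in the NaCl library. With lists of equal length the NaCl gene-end count was 1. An overlap of 50% of both peaks left 29.2% of lactate and 38.9% of NaCl peaks with a partner. With the summit required inside the other library's peak, the shares were 33.3% and 44.4%, near the lower ends of their intervals. No share over all peaks under these overlap rules is given here. A flank of 10 kb gave 12 lactate and 7 NaCl peaks, with 5 members marked in the lactate and 5 in the NaCl library, and a flank of 100 kb gave 45 lactate and 30 NaCl peaks. The other alternatives run left these values within 1.5 times or within their intervals, including merged intervals, end windows of 500 bp and 3 kb, and scaling to depth. The median ratio of local background was 1.54 for pairs with summits within 200 bp and 1.49 without the Hand2 pair, both chosen after seeing the data.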
